A study of Nicotiana tabacum with 9 samples.

Results

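Protochlorophyllide reductase, also called NADPH:protochlorophyllide oxidoreductase or POR, is the chloroplast enzyme that reduces protochlorophyllide to chlorophyllide, the step of chlorophyll synthesis that in flowering plants cannot run without light. The enzyme binds protochlorophyllide and NADPH, and the complex reacts only when the pigment absorbs light. Plants often carry several POR genes, and in Arabidopsis their transcripts respond to light in different ways, PORA falling and PORC rising. All genes of the deposited table whose Swiss-Prot match names a protochlorophyllide reductase were taken, which gave 3 of its 123 genes.

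The leaves came from H382 seedlings, a cigar variety of tobacco (Nicotiana tabacum, an allotetraploid), and all groups share this variety, tissue and stage. Plants grew at a light intensity of 50, 100 or 200 µmol m-2 s-1, called light 50, light 100 and light 200 here, with 3 biological replicates and 3 RNA sequencing libraries per group. How long the plants stayed at each intensity and when leaves were taken were not stated in the sources used here. In whole leaves, fewer cells of a type and less RNA per cell cannot be told apart.

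The first copy, Nitab4.5_0001320g0160, lies on the plus strand of Nt01 from 129185978 to 129189772 and is called the Nt01 copy below. Its KEGG match is named light dependent NADH:protochlorophyllide oxidoreductase 3. The second, Nitab4.5_0000512g0200, lies on the plus strand of Nt02 from 90418599 to 90421209 (the Nt02 copy), and the third, Nitab4.5_0002526g0100, on the plus strand of Nt10 from 88794747 to 88797325 (the Nt10 copy). The KEGG match of both is the tomato gene POR2, while the Swiss-Prot match of all 3 is POR1 of carrot. Which genome build these coordinates refer to is not given here by any source.

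The gene models have lengths of 1164 bases for the Nt01 copy, 1206 for the Nt02 copy and 1200 for the Nt10 copy. All 123 lengths in the table are multiples of 3, so these are coding lengths. The Nt01 copy spans 3795 bases of genome against 2611 and 2579 for the others, and coding sequence makes up 30.7% of its span against 46.2% and 46.5%. Its gene ontology terms also include RNA polymerase activity, which 3 genes of the table carry, and those of the Nt02 copy include transporter activity, which 5 genes carry. The molecular function terms of the Nt10 copy are only those of an oxidoreductase. Copies of similar sequence can share reads, and how alike these 3 are was not measured here, so the value of a single copy is uncertain to that extent.

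The libraries held between 12395758 and 16603534 reads, and the 3 copies drew between 919 and 6870 reads in a library. Counting error was at most 3.3% of a copy's level, below the spread between replicates in every group. The table is a selection: the authors' deposited table marks 122 of its 123 genes as changed between light 50 and light 200. That each copy differed between these groups is therefore no independent evidence, whereas differences between the copies were not part of that mark. The trend with light and the test for any difference among groups include this contrast. Each single doubling shares a group with it, so none of these tests is independent of the selection. Antenna and photosystem genes, which mark green leaf tissue, were abundant, the 9 antenna genes summing to between 13577 and 34270 CPM (counts scaled to library size) in a library. The 1 gene matched to ribulose bisphosphate, also chosen as a leaf marker, was far lower. It had 56.0 to 58.1 CPM at light 50, 39.7 to 50.7 CPM at light 100 and 34.0 to 35.8 CPM at light 200. A search for root nicotine genes by product name found 1 gene, named only as berberine bridge enzyme-like. Whether it is a root or nicotine gene was not tested. It moved opposite to the copies, with 0.606 to 1.32 CPM at light 50, 1.18 to 2.0 CPM at light 100 and 3.98 to 7.50 CPM at light 200. The 1 gene for dividing tissue, a beta-tubulin, fell with light from a range of 79.1 to 126.7 CPM at light 50 to one of 28.6 to 38.2 CPM at light 200, and the part of these 2 genes in the results below was not tested. The table's share of all reads was 6.60% to 7.37% at light 50, 5.85% to 6.32% at light 100 and 4.63% to 5.33% at light 200.

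The mean level of all 3 copies was highest at light 50 and lowest at light 200, but by very different amounts. The Nt01 copy had 174.3, 194.1 and 341.8 FPKM (fragments scaled to gene length and to library size, as the authors deposited them) in the light 50 libraries. The light 100 libraries gave 99.1, 114.3 and 127.4 FPKM and those of light 200 52.6, 73.8 and 73.7 FPKM. No group overlapped another, and the light 50 group was the most spread, with replicate 3 well above the other two.

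The Nt02 copy had 365.3, 326.9 and 380.5 FPKM at light 50. It had 226.0, 271.2 and 275.8 FPKM at light 100 and 216.8, 217.9 and 188.8 FPKM at light 200. Its 3 groups did not overlap in FPKM either, although the lowest light 100 library lay close to the highest light 200 library.

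The Nt10 copy had 325.6, 288.0 and 383.2 FPKM at light 50. It had 225.4, 294.1 and 283.9 FPKM at light 100 and 262.3, 250.5 and 212.7 FPKM at light 200. In FPKM the light 100 libraries of this copy overlapped those of both other groups, while those of light 50 and light 200 stood apart.

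**Figure D1:**
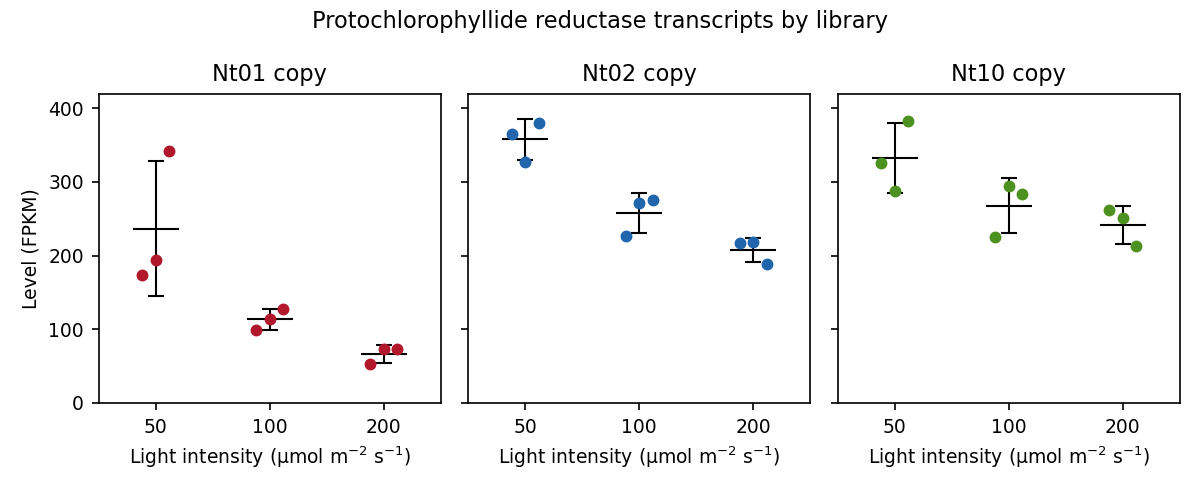
Level of each protochlorophyllide reductase copy in FPKM (vertical axis) in every library (points) at the 3 light intensities, with the group mean and SD (bars, n = 3). The Nt01 copy falls from a mean of 236.7 to 66.7 FPKM, while the Nt10 copy falls from 332.3 to 241.9 FPKM.

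Per length, the order of the copies changed with light. At light 50 the mean level was 357.6 ± 27.6 FPKM (SD, n = 3) for the Nt02 copy, 332.3 ± 47.9 for the Nt10 copy and 236.7 ± 91.5 for the Nt01 copy. Neighbours in that order overlapped, although the Nt01 copy was the lowest of the 3 in each library. At light 100 the Nt10 copy, at 267.8 ± 37.1 FPKM, and the Nt02 copy, at 257.7 ± 27.5 FPKM, were not separated, and the Nt01 copy was below both at 113.6 ± 14.2 FPKM. At light 200 the Nt10 copy led with 241.9 ± 25.9 FPKM and was above the Nt02 copy, at 207.8 ± 16.4 FPKM, in 3 of 3 libraries, though the ranges overlapped. The Nt01 copy then had 66.7 ± 12.2 FPKM, and the level of the Nt02 copy was 3.12 times as high. Copies outside this selected table are not analysed here, so sums and shares cover these 3 alone. The summed level of the 3 copies was 926.6 ± 157.5 FPKM in the light 50 group, 639.1 ± 76.9 FPKM in that of light 100 and 516.3 ± 36.0 FPKM in that of light 200.

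The make-up of that sum shifted from the Nt01 copy to the Nt10 copy. The Nt01 copy supplied 25.0% ± 5.46 of the summed FPKM at light 50 (SD, n = 3). At light 100 it supplied 17.8% ± 0.882, and with the highest light 13.0% ± 2.86. The share of the Nt10 copy went from 36.0% ± 1.52 through 41.8% ± 1.25 to 46.8% ± 2.34, with no overlap between groups. The share of the Nt02 copy was 39.0% ± 4.08, 40.4% ± 0.608 and 40.2% ± 0.518. These shares sum to 100% in a library, so they are not independent of each other.

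**Figure D2:**
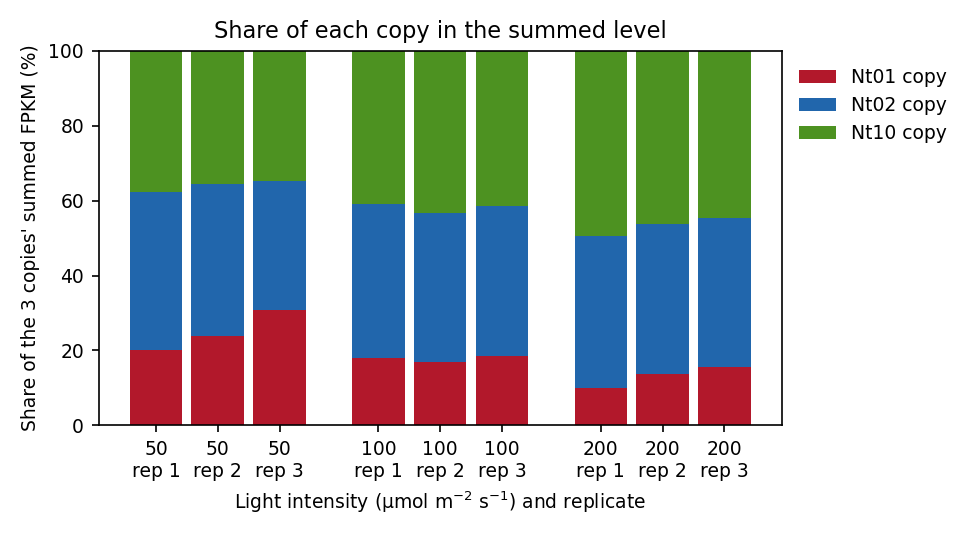
Share of each copy in the summed FPKM of the 3 copies (vertical axis, %) in each of the 9 libraries, ordered by light intensity and replicate. The Nt01 share is between 20.1% and 30.9% at light 50 and between 9.89% and 15.5% at light 200, and the Nt02 share stays near 40.2% at the 2 higher intensities.

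Over the whole range, from light 50 to light 200, the level of each copy fell. Counts were tested with edgeR's quasi-likelihood test on all 9 libraries, with Benjamini-Hochberg adjustment over the 123 genes. These genes are a selection, so the adjustment does not cover all genes sequenced. The Nt01 copy went from 288.5 ± 105.6 CPM at light 50 to 73.4 ± 12.7 CPM at light 200 (SD, n = 3), which is 25.4% of its light 50 level. On the log2 scale it changed by -1.98 ± 0.24 (SE; edgeR adjusted p = 1.11e-05), and by -1.63 when light 50 replicate 3 was left out. The Nt02 copy, with 454.0 ± 39.8 CPM at light 50 and 237.7 ± 25.1 CPM at light 200, changed by -0.93 ± 0.15 on that scale (edgeR adjusted p = 7.66e-05). The Nt10 copy had 419.4 ± 58.4 CPM at light 50 and 275.4 ± 36.5 CPM at light 200, and its log2 change was -0.61 ± 0.17 (edgeR adjusted p = 0.00365). In the test for any difference among the 3 groups the adjusted p was 3.36e-05 for the Nt01, 0.000272 for the Nt02 and 0.0109 for the Nt10 copy (edgeR), in a table where 99.2% of genes passed it. For the Nt10 copy that call was lost with TMM (adjusted p = 0.432), with RLE (adjusted p = 0.108) and when light 50 replicate 3 was left out (adjusted p = 0.05004). Of all genes in the table, 52.0% were called lower in this comparison and 52.0% had all light 200 libraries below all light 50 libraries, as did the 3 copies. Since the table was selected on this contrast, nothing is read from that count.

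The median log2 change of the 123 genes over this range was -0.58, close to the value of the Nt10 copy, which ranked 59th from the largest fall. The Nt02 copy ranked 34th and the Nt01 copy 9th. The calls of the Nt01 and Nt02 copies held under each scaling tried, but that of the Nt10 copy was lost with TMM factors (log2 change -0.18, adjusted p = 0.213) and with RLE factors (-0.32, adjusted p = 0.0698). Both methods take most genes as unchanged, and the median of all 123 log2 changes shifted upward by 0.43 with TMM and by 0.29 with RLE.

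**Figure D3:**
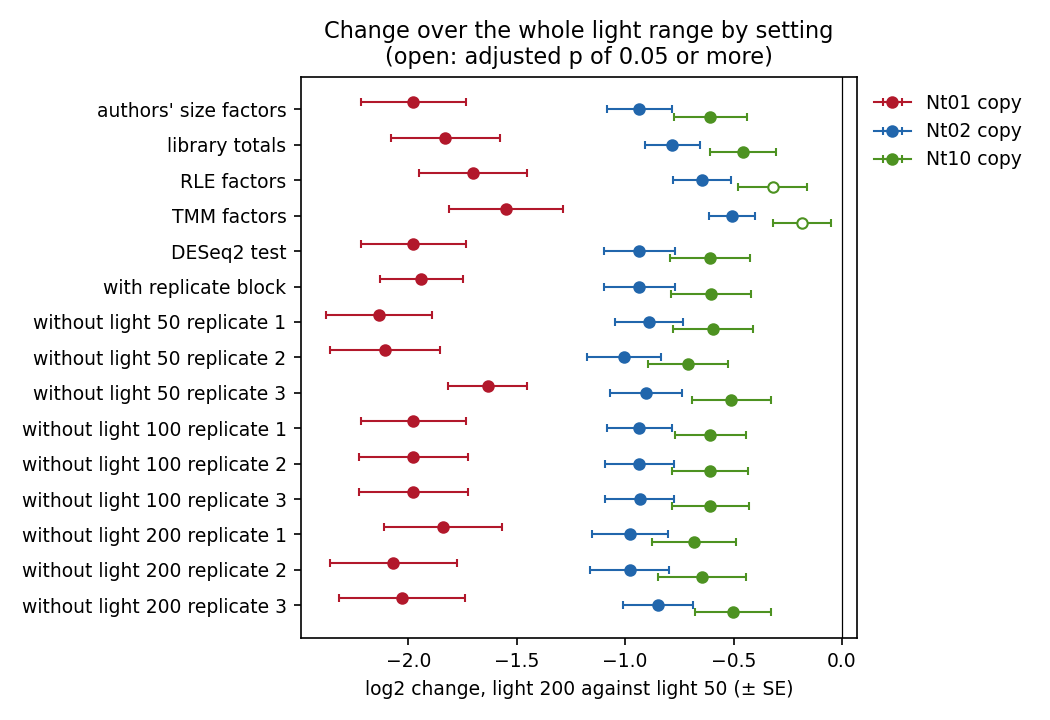
Log2 change from light 50 to light 200 (horizontal axis, with SE as bars) of each copy under each scaling, test and left-out library (rows), with filled points where the adjusted p was under 0.05. The Nt01 copy is the farthest from 0 in each row, and the open points are those of the Nt10 copy with RLE and TMM factors.

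When light doubled from 50 to 100, the Nt01 and Nt02 copies fell, in a table of which 40.7% of genes were called lower. The Nt01 copy fell to 132.8 ± 17.6 CPM, a log2 change of -1.12 ± 0.24 (SE; edgeR adjusted p = 0.00195), the 6th largest fall in the table. Without light 50 replicate 3 this change was -0.78 and still called. The Nt02 copy fell to 312.1 ± 36.4 CPM, a log2 change of -0.54 ± 0.15 (edgeR adjusted p = 0.00753). The Nt10 copy had 322.9 ± 48.0 CPM at light 100, a log2 change of -0.38 ± 0.17 that was not called (edgeR adjusted p = 0.0519). In CPM the light 100 libraries lay below those of light 50 for all 3 copies, as they did for 43.1% of all genes, but narrowly for the Nt10 copy, whose highest light 100 library had 357.5 CPM and lowest light 50 library 357.9 CPM. With TMM factors the call of the Nt02 copy was lost (log2 change -0.26, adjusted p = 0.0633).

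In the second doubling, from 100 to 200, the Nt01 and Nt02 copies were again called lower, as was 39.0% of the table. The copies were not tested against each other within this step. The Nt01 copy had a log2 change of -0.86 ± 0.24 (SE; edgeR adjusted p = 0.0112) and fell to 55.2% of its light 100 level. The log2 change of the Nt02 copy was -0.39 ± 0.15 (edgeR adjusted p = 0.0365). That call was lost with TMM or RLE factors, with the replicate number as a block (adjusted p = 0.0595) and in 5 of the 9 fits without 1 library. The 5 libraries were light 100 replicates 2 and 3 and the light 200 replicates 1, 2 and 3, with adjusted p from 0.0577 to 0.127. The log2 change of the Nt10 copy was -0.23 ± 0.17 (edgeR adjusted p = 0.231), not detectable against the spread of these libraries. It lay between -0.35 (without light 100 replicate 1) and -0.12 (without light 200 replicate 3) with 1 library left out, and was -0.09 with TMM and -0.0016 with RLE factors. All light 200 libraries lay below those of light 100 for the Nt01 and Nt02 copies, as for 41.5% of genes.

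**Figure D4:**
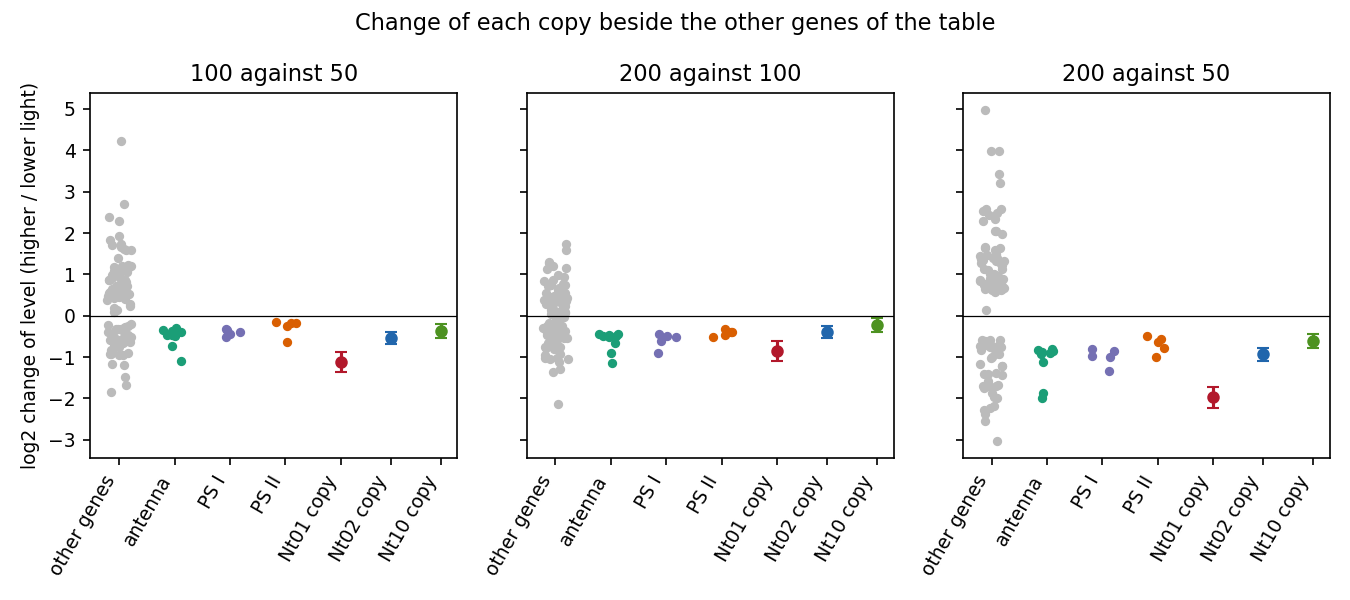
Log2 change of level in each pair of light intensities (panels) for the 3 copies (with SE), the 9 antenna genes, the 5 photosystem I genes, the 5 photosystem II genes and the other genes of the table (points). The Nt01 copy lies at -1.12, -0.86 and -1.98, below most antenna and photosystem genes, and the Nt10 copy at -0.61 over the whole range lies above all 9 antenna genes.

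A straight line in log2 light intensity gave the change per doubling. It was -0.99 ± 0.12 (SE) for the Nt01 copy (edgeR adjusted p = 1.78e-05), a fitted level of 50.4% after each doubling of light. Taken step by step, its level went to 46.0% in the first doubling and to 55.2% in the second. Without light 50 replicate 3 its slope was -0.82. The slope was -0.47 ± 0.07 for the Nt02 copy (adjusted p = 8.34e-05) and -0.30 ± 0.08 for the Nt10 copy (adjusted p = 0.00357), in a table with a downward trend in 52.0% of genes. The trend of the Nt10 copy was not called with TMM or RLE factors (slopes of -0.09 and -0.16). The 2 doublings did not differ detectably for any copy. The second change minus the first was 0.26 ± 0.41 (SE) on the log2 scale for the Nt01 copy and 0.15 for both others, with SE of 0.26 for the Nt02 copy and 0.29 for the Nt10 copy (edgeR adjusted p = 0.791 for each). This difference was called in 3 of the 123 genes, or 2.44%. All 3 rose with light and rose by less in the second doubling, so their difference was negative. Without light 50 replicate 3 that of the Nt01 copy was -0.08, and without light 100 replicate 1 those of the Nt02 and Nt10 copies were -0.04 and -0.09.

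The fall differed between the copies, and this result does not depend on how libraries are scaled, because it rests on the ratio of 2 copies' counts within a library. All assignments of the 9 libraries to the 3 intensities (1680 in number) were compared in a two-sided exact permutation test of the slope on log2 light, whose smallest possible p is 0.00119, with adjustment over the 3 pairs of copies. Between light 50 and light 200 the ratio of the Nt02 to the Nt01 copy rose 2.0-fold. In log2 units it was 1.12, 0.80 and 0.21 in the light 50 libraries. The light 100 libraries gave 1.24, 1.30 and 1.16, and the light 200 libraries 2.09, 1.61 and 1.41. The groups did not overlap, and the slope was 0.50 ± 0.13 per doubling (SE, exact permutation adjusted p = 0.00179).

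The ratio of the Nt01 to the Nt10 copy separated most. In log2 units it was -0.95, -0.61 and -0.21 in the light 50 libraries. It was -1.23, -1.41 and -1.20 in those of light 100, and -2.36, -1.81 and -1.57 in those of light 200. It fell at each step without overlap, with a slope of -0.66 ± 0.12 per doubling (SE, exact permutation adjusted p = 0.00179). In FPKM the Nt10 copy was 1.49 ± 0.373 times as high as the Nt01 copy at light 50 and 3.76 ± 1.10 times at light 200 (SD, n = 3).

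The 2 copies matched to tomato POR2 also differed, by less. The log2 ratio of the Nt02 to the Nt10 copy was 0.17, 0.19 and -0.0029 in the light 50 libraries. It was 0.01, -0.11 and -0.03 in those of light 100, and -0.27, -0.19 and -0.16 in those of light 200. The light 200 libraries lay below all others, while those of light 50 and light 100 overlapped. Its slope was -0.16 ± 0.03 per doubling (SE, exact permutation adjusted p = 0.00238). The slopes of all 3 pairs kept their direction and stayed under an adjusted p of 0.05 without any 1 of the 9 libraries, the highest being 0.0107. Pairs of other genes in the table were not tested in this way. A change of ratio with light is therefore not shown to be particular to these copies. Groups taken 2 at a time hold 3 libraries each, and a two-sided exact permutation test of 3 against 3 cannot go below p = 0.1, so no test of a single step was made on these ratios.

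**Figure D5:**
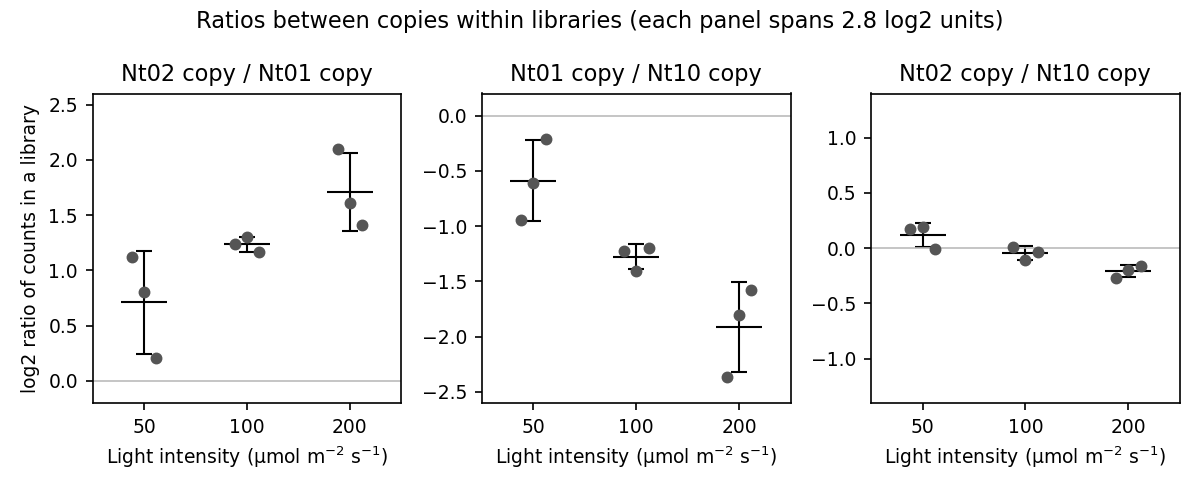
Log2 ratio of the counts of 2 copies within each library (points, vertical axis, each panel spanning the same number of log2 units) against light intensity, with the group mean and SD (bars, n = 3). Mean ratios run from 0.71 to 1.71 for Nt02 over Nt01, from -0.59 to -1.91 for Nt01 over Nt10 and from 0.12 to -0.21 for Nt02 over Nt10.

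Within groups, the 2 POR2-matched copies varied together and the Nt01 copy less so. The deviations of log2 CPM from the group means had a Pearson r of 0.95 between the Nt02 and Nt10 copies over the 9 libraries. The value was 0.25 between the Nt01 and Nt02 copies and 0.39 between the Nt01 and Nt10 copies. A high value was not particular to the POR2-matched pair. With plastid transcriptionally active 16 (Nitab4.5_0000102g0310) it was 0.96 for the Nt02 copy and 0.94 for the Nt10 copy. These points share their libraries and scaling, and reads shared between copies would also enter them, so the values are a description.

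The gene groups set beside the copies were chosen by product name. They are the chlorophyll a-b binding antenna proteins, which carry the chlorophyll that POR helps to make, and the subunits of photosystems I and II. Each of the 9 antenna, 5 photosystem I and 5 photosystem II genes was called lower at light 200 than at light 50, as were 52.0% of all genes. Since the table was selected on this contrast, nothing is read from these calls. The comparisons below hold for these selected genes and not for the gene families as a whole. The median log2 change was -0.90 for antenna, -0.97 for photosystem I and -0.62 for photosystem II, against -0.58 over all genes. In this comparison 1 antenna gene and none of the 10 photosystem genes had a larger fall than the Nt01 copy. That gene was chlorophyll a-b binding protein 16 (Nitab4.5_0000982g0200), with a log2 change of -2.0 ± 0.16 (SE). All 9 antenna and all 5 photosystem I genes had a larger fall than the Nt10 copy, as had 3 of the 5 photosystem II genes. The Nt02 copy lay among them, with a larger fall in 3 antenna genes, 3 photosystem I genes and 1 photosystem II gene.

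Each copy was then set against the mean log2 count of these groups within a library, with the same exact permutation test adjusted over 9 comparisons. The Nt01 copy fell by more than each group. Its slope relative to the photosystem II genes was -0.62 ± 0.15 per doubling (SE, exact permutation adjusted p = 0.0107). Relative to the antenna genes it was -0.40 ± 0.14 and relative to the photosystem I genes -0.47 ± 0.15 (exact permutation adjusted p = 0.0268 for both), and these calls were lost in 5 and 4 of the 9 tests without 1 library. Light 50 replicate 3, light 100 replicate 3 and light 200 replicates 1 and 2 ended both, and light 50 replicate 2 that against the antenna genes, with adjusted p of at most 0.0857.

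The Nt10 copy fell by less than the antenna genes, with a relative slope of 0.26 ± 0.04 per doubling (SE, exact permutation adjusted p = 0.0107), and this held without any 1 library. Relative to the photosystem I genes its slope was 0.19 ± 0.06 (exact permutation adjusted p = 0.0304), a call that only the tests without light 50 replicate 3 or light 100 replicate 1 kept and that was lost when groups were permuted within replicate numbers. Relative to the photosystem II genes it was 0.05, with a 95% interval from -0.12 to 0.21 (exact permutation adjusted p = 0.539). The Nt02 copy had relative slopes of 0.10 ± 0.03 against the antenna genes (exact permutation adjusted p = 0.0304), 0.03 against photosystem I (adjusted p = 0.539, 95% interval from -0.08 to 0.14) and -0.12 against photosystem II (adjusted p = 0.0735, 95% interval from -0.24 to 0.01). The call against the antenna genes was lost in 8 of the 9 tests without 1 library, all but that without light 100 replicate 1, and when groups were permuted within replicate numbers (adjusted p = 0.107).

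The genes with the most similar pattern also differed between the copies. Likeness was the Pearson r of log2 CPM over the 9 libraries with each of the other 120 genes. For the Nt01 copy the leading genes were ABA DEFICIENT 4 (Nitab4.5_0000912g0240), a chloroplast protein needed for neoxanthin synthesis in Arabidopsis, with r = 0.97, then chlorophyll a-b binding protein 16 with r = 0.97, followed by Nitab4.5_0007189g0010, which is matched to the antenna protein P4, with r = 0.96. Their mean levels went from 62.7 to 17.1 CPM, from 1133 to 283.2 CPM and from 1166 to 320.8 CPM between light 50 and light 200.

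The Nt02 and Nt10 copies had the same 3 genes at the top. These were the thylakoid lumenal 19 kDa protein (Nitab4.5_0000634g0080), the minor antenna protein CP24 10A (Nitab4.5_0003434g0030) and plastid transcriptionally active 16 (Nitab4.5_0000102g0310), a protein of the plastid nucleoid. Their r was 0.99, 0.99 and 0.98 with the Nt02 copy and 0.94, 0.95 and 0.95 with the Nt10 copy. The median r with all other genes was 0.65 for the Nt01 copy, 0.57 for the Nt02 copy and 0.37 for the Nt10 copy, and all these points share libraries and scaling.

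A search of the product names for the rest of chlorophyll, heme and bilin synthesis, chlorophyll breakdown and the light signalling factors that act on them found 0 genes in the table beside the 3 copies. Other steps of the pathway are not analysed here.

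The authors' deposited table gives its own comparisons, adjusted over more genes than it holds. In the authors' deposited table the Nt01 copy was higher at light 50 than at light 200 by a log2 fold change of 1.98 (adjusted p = 0.00293), the Nt02 copy by 0.93 (adjusted p = 2.65e-06) and the Nt10 copy by 0.61 (adjusted p = 0.00638), and all 3 are marked. For the first doubling the authors' deposited table marks the Nt02 copy (adjusted p = 0.0496) and not the Nt01 copy, whose log2 fold change of 1.12 has an adjusted p of 0.236. The Nt10 copy is not marked there either (log2 fold change 0.38, adjusted p = 0.468). For the second doubling the authors' deposited table marks the Nt01 copy alone of the 3 (log2 fold change 0.86, adjusted p = 0.000439).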

How the data were processed

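RNA from leaves of 3 light groups, 3 libraries each, was sequenced, with libraries made by NEBNext's Ultra kit for RNA according to the labels' protocols. That kit does not mark strand, so reads of a gene and of an antisense partner cannot be told apart. CASAVA 1.7, HISAT and HTSeq are the tools in the submitters' processing notes, and no source used here states how reads that match several copies were treated. The deposited table holds raw read counts and FPKM per library, per the file headers. It also holds the authors' mean normalised counts (scaled by size factors), log2 fold changes and p-values before and after adjustment, per the file headers. Groups come from the sample titles.

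Library totals were recovered as count over FPKM and length. The authors' size factors were recovered from their mean normalised counts (largest relative error 4.98e-10) and combined into 1 set, from which the separate comparisons differed by at most 0.188%. CPM values use these factors. The count test was edgeR 4.0.16 under R 4.3.3 (glmQLFit, glmQLFTest, two-sided, filterByExpr, which kept all 123 genes), with all 9 libraries and group as factor, and calls at an adjusted p under 0.05. Ratios used log2(count + 0.5) in numpy 2.4.6 and scipy 1.17.1. Alternatives were TMM, RLE and library totals, DESeq2 1.42.0, no filter, a replicate block, only the 2 groups compared, other pseudocounts, FPKM and each library left out. On 20 simulated data sets of light 200 against light 50 with 123 genes, edgeR called 62.5% of the genes with a simulated 1.5-fold change and 95.7% of those with a 2-fold change, while 3.56% of its calls fell on unchanged genes.

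The copies were chosen by product text, and copies, gene lists and tests were chosen with earlier results of these data known. The named genes were all copies, the 3 genes most correlated with each, and the list members of largest change. The reference gene table matched 0 of the identifiers, so no sequence is shown. Replicates differed by more than counting noise in each group (chi-square over its degrees of freedom 23.6 to 102.4), so none looked like 1 library deposited again. This does not show that they are independent, which rests on the study's description of them as biological replicates.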

Additional observations from a re-analysis of the deposited data

How the results depend on the processing

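Library totals as the scaling, dropping the filter, fitting only the 2 groups compared, a pseudocount of 5 and FPKM in place of counts changed no call on the copies. With TMM the log2 change of the Nt02 copy was -0.26 for light 100 against light 50 and -0.25 for light 200 against light 100, and with RLE the latter was -0.17, none called. For the Nt10 copy, TMM gave -0.18 and RLE -0.32 for light 200 against light 50, with slopes per doubling of -0.092 and -0.16 and an adjusted p for any difference among groups of 0.432 and 0.108. TMM cut the genes called lower for light 100 against light 50 from 50 to 13, and RLE those for light 200 against light 100 from 48 to 17. DESeq2 called the Nt10 copy lower at light 100 than at light 50 (-0.38, adjusted p = 0.0494). The step difference was called for 3 genes with edgeR, 9 with DESeq2, 23 with TMM and 6 with the block.

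Replicate numbers gave no clear sign of pairing: deviations of the 9 same-numbered pairs correlated between -0.50 and 0.54, and 4 libraries of 9 correlated best with their own number. Differently numbered pairs correlated between -0.59 and 0.48, a similar range, so this check cannot settle whether samples were paired. With the replicate number as a block the Nt02 change from light 100 to light 200 stayed at -0.39 but was not called. Permuting within replicate numbers ended the call of the Nt02 copy against the antenna genes (slope 0.10) and that of the Nt10 copy against the photosystem I genes (slope 0.19, adjusted p at the threshold), and neither form of the block changed another call on the copies.

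Leaving out 1 library at a time, the Nt02 change from light 100 to light 200 lay between -0.49 and -0.31 and the Nt10 change from light 50 to light 100 between -0.48 and -0.26, the latter with calls when light 50 replicate 2 was left out (adjusted p = 0.0365) and when light 200 replicate 3 was (adjusted p = 0.0406). The Nt01 change from light 50 to light 100 lay between -1.28 and -0.78, and that from light 50 to light 200 between -2.13 and -1.63. Both were called in each of these fits and smallest without light 50 replicate 3. The adjusted p of the Nt10 copy for any difference lay between 0.00785 and 0.05004, the highest without light 50 replicate 3. Step differences ran from -0.040 to 0.26 for the Nt02 copy, from -0.079 to 0.45 for the Nt01 copy and from -0.087 to 0.31 for the Nt10 copy. Relative to antenna genes, slopes ran from 0.078 to 0.11 for the Nt02 copy and from -0.49 to -0.27 for the Nt01 copy. Relative to photosystem I they ran from -0.56 to -0.32 for the Nt01 copy and from 0.17 to 0.25 for the Nt10 copy. Relative to photosystem II that of the Nt02 copy ran from -0.14 to -0.088 and was called without light 100 replicate 1. Such tests have fewer assignments to compare than those on all libraries.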
